A study of Mus musculus with 20 samples.

Results

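The hair shaft matrix lies at the base of the growing hair follicle. Its dividing cells stop dividing as they move upward and become the medulla, cortex and cuticle of the hair, while neighbouring matrix cells form the inner root sheath. Lef1, a transcription factor of Wnt signalling, and the homeodomain factors Msx1, Msx2 and Hoxc13 are active in matrix and early shaft cells. Krt35 is among the first hair keratins made there. Fgf5 is a growth factor of the follicle whose loss lengthens hair in mice.

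Cells assigned to the shaft matrix were selected by their own counts in single-cell RNA data from anagen dorsal skin epidermis of control and Fgf5 mutant mice. Control mice were Nfatc1-CreER;R26R;mTmG, which carry a tamoxifen-switched recombinase and a red-to-green membrane reporter. Mutant mice were Nfatc1-CreER;R26R;mTmG;Fgf5-/-. A 3-day course of tamoxifen began on postnatal day 21 or 22 in controls and 23 or 24 in mutants. Its timing thus differs with genotype, and the age at harvest is not in the labels. The labels list 4 control and 16 mutant samples without saying which are separate animals, and each group was deposited as 1 matrix. Each group is therefore 1 sample, no test between groups was possible, and every interval below covers counting error only.

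Of barcodes with at least 500 genes and at most 15% mitochondrial unique molecular identifiers (UMIs), a cell was a member with at least 4 UMIs of Lef1, Msx1, Msx2 and Hoxc13 together. Cells high in late hair keratins, inner root sheath keratins or pigment genes, or with UMIs of dermal papilla, medulla or T cell genes above set limits, were left out. This gave 1362 of 14156 control cells and 950 of 11455 mutant cells, 2312 of 25611 in all. The share was 9.62% in control (95% Clopper-Pearson interval 9.14 to 10.1%) and 8.29% in mutant (7.79 to 8.81%). The log2 ratio of the shares was -0.21 (-0.34 to -0.09). The marker minimum was met by 2229 control and 1375 mutant kept cells, and the limits then left out unequal numbers. In turn these were 17 and 19 by hair keratins, 152 and 22 by inner root sheath keratins, and 68 and 48 by pigment genes. Dermal papilla genes then left out 330 and 101, medulla genes 152 and 216, and T cell genes 148 and 19. The ratio of the shares thus depends on these limits. Members had a median of 12140.5 UMIs in control and 10629 in mutant, with 2.89% and 4.51% mitochondrial UMIs. The libraries shared 39 kept barcodes and 0 member barcodes. Cells with 4 marker UMIs, just inside the limit, had 676 CPM (the UMIs of a gene per 1e6 UMIs of the cells) of Krt35 in control and 677 in mutant, against 390 and 344 in cells with 3, just outside.

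The label held for only some of the members. Clustering gave 14 sub-clusters, numbered by size from 0. Clusters 3 and 5 were led by Selenbp1, and cluster 3 also by Krt35 and Lef1. Cluster 6 was led by the cortical hair keratins Krt33a and Krt31 with Krtap8-1, a keratin-associated protein. Cluster 7 was led by S100a3 and Krt32, both known from the hair cuticle. Clusters 0 and 1 were led by genes of cell division, among them Top2a and Prc1 in cluster 0 and Birc5 and Ccnb1 in cluster 1, and are called the dividing clusters. Clusters 2 and 10 were led by inner root sheath genes such as Krt71 and Krt72, cluster 4 by Sox9 and Krt6a of the outer root sheath, cluster 12 by collagen genes with Mlana, and cluster 13 by Cd74 and other antigen presentation genes. Krt35 was at 7202 CPM in cluster 6, 6129 in cluster 7, 5985 in cluster 3 and 3033 in cluster 5, and at 192 in cluster 0. Selenbp1 was at 1210 CPM in cluster 3 and 543 in cluster 5. Globin genes were among the leading genes of cluster 3, 4 of its 10 beside the heat shock gene Hspa1a, with Hbb-bs at 6898 CPM there and at 2262 in cluster 5; red cells are their usual source, and the part of their free RNA was not tested.

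**Figure D1:**
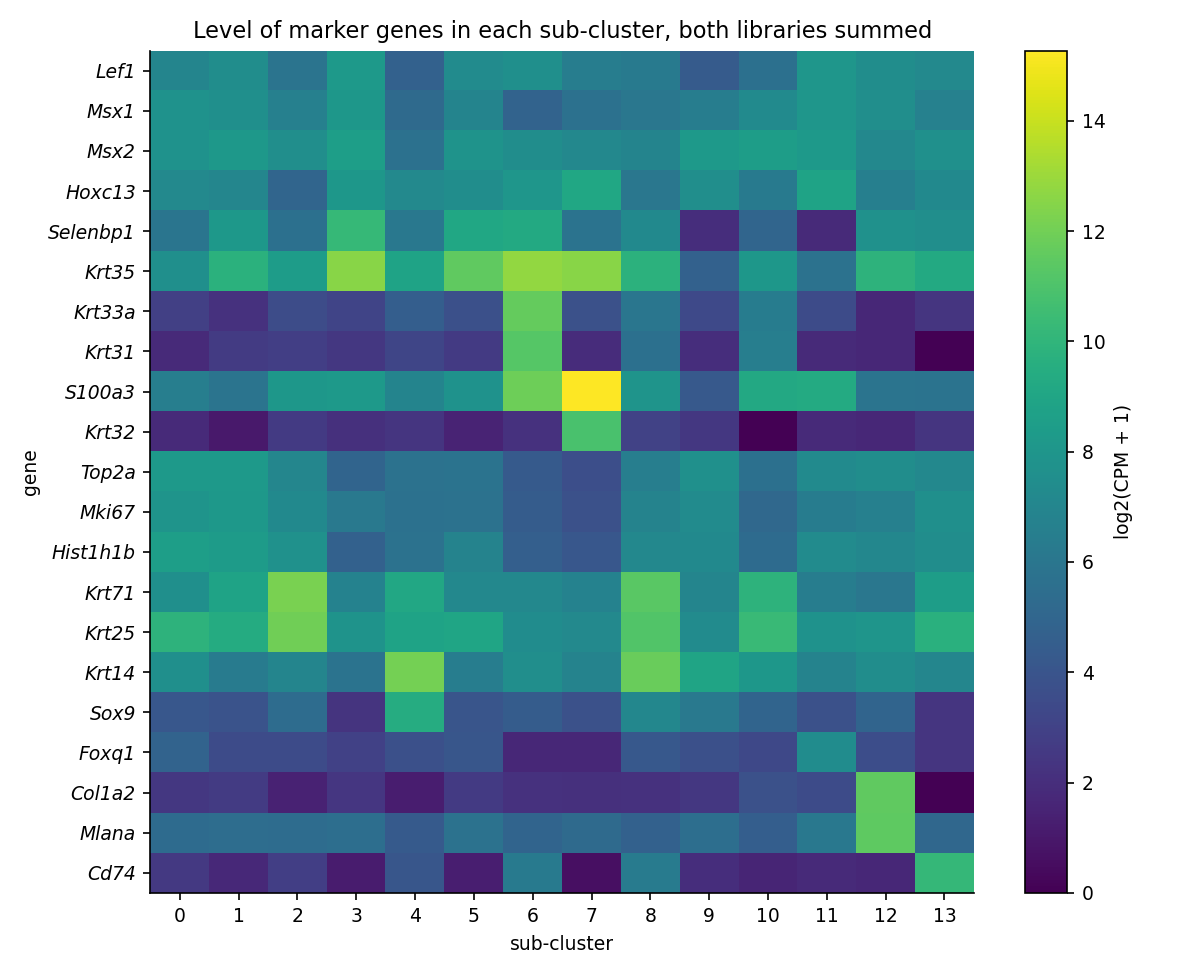
Level of marker genes, as log2(CPM + 1), in each of the 14 sub-clusters with both libraries summed. Krt35 is high in clusters 3, 5, 6 and 7, S100a3 in cluster 7, Krt71 in cluster 2 and Sox9 in cluster 4, while the 4 factors of the rule are spread over most clusters.

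Apart from the genes that chose them, members differed most from other kept cells in Krt35, S100a3, the unnamed gene AC103674.4 and Dapl1. Krt35 was at 2013 CPM in control members against 149 in other cells, and at 1297 against 83.0 in the mutant library. S100a3, a calcium-binding protein of the hair cuticle, was at 1933 against 216 CPM in control and at 3239 against 378 in mutant. Most of this came from the 123 cells of cluster 7. With both libraries summed, S100a3 was at 39548 CPM there and at 459 in all other members. AC103674.4 was at 593 against 69.0 CPM in control and 522 against 64.1 in mutant, and 26.6% of its 3' sequence runs occur in other genes. Dapl1 was at 1487 against 219 CPM and at 1058 against 191. Notch1, a receptor of cell fate choice, was at 203 against 93.3 and at 309 against 110. These are descriptions, since the members were chosen by their expression. UMIs of all 4 factors were found in 24.1% of control and 24.3% of mutant members, and of only 1 in 8.22% and 5.79%.

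The mix of these cells differed between libraries. Sizes are given from clustering without a set of genes of large ratio between libraries, a choice made after the values were seen. The genes left out had a large ratio among all members or in single clusters with enough cells of both libraries. Clusters with few cells of a library, such as cluster 0 with 28 control cells, and pooled clusters were not screened. Genes of large ratio only there were kept. The new clusters are numbered w0 to w14. Cluster w1, led by Selenbp1, Krt35 and Dapl1, held 172 of 1362 control and 119 of 950 mutant members, 12.6% and 12.5% (log2 ratio -0.01, -0.36 to 0.33). Cluster w2 was led by the neuropeptide gene Npy and by genes of pigment cells, among them Mlana, and held 7.34% and 18.8% (1.36, 0.9987 to 1.73). Of its 279 cells 210 came from cluster 5, which had no pigment gene among its leading genes. Npy and Mlana were also leading genes of cluster 12, of 17 control and 14 mutant cells, at 1700 and 2857 CPM there. The collagen-led w13, of 11 control and 14 mutant cells, had neither among its leading genes. Whether a few cells carry the pigment lead of w2 was not tested. The share of w2 is therefore not read as a share of pigment-gene cells. Division genes led w0, with 163 control and 132 mutant cells (0.22, -0.13 to 0.56). Dcn led w5, with 113 and 72 (-0.13, -0.58 to 0.31), and w6, with 27 and 143 (2.92, 2.32 to 3.58). Most cells of clusters 0 and 1 were in these 3. The Krt71-led cluster w3 held 15.3% and 6.63% (-1.21, -1.64 to -0.80), and w4, led by Cald1 and Sfrp1, 14.2% and 4.84% (-1.55, -2.05 to -1.08). The hair keratin-led w10 held 4.26% and 2.53% (-0.75, -1.50 to -0.04), and the S100a3-led w7 5.65% and 4.53% (-0.32, -0.89 to 0.24). With 1 library a group, dissociation, genotype, the timing of tamoxifen and any difference in age cannot be told apart as reasons for these shares.

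**Figure D2:**
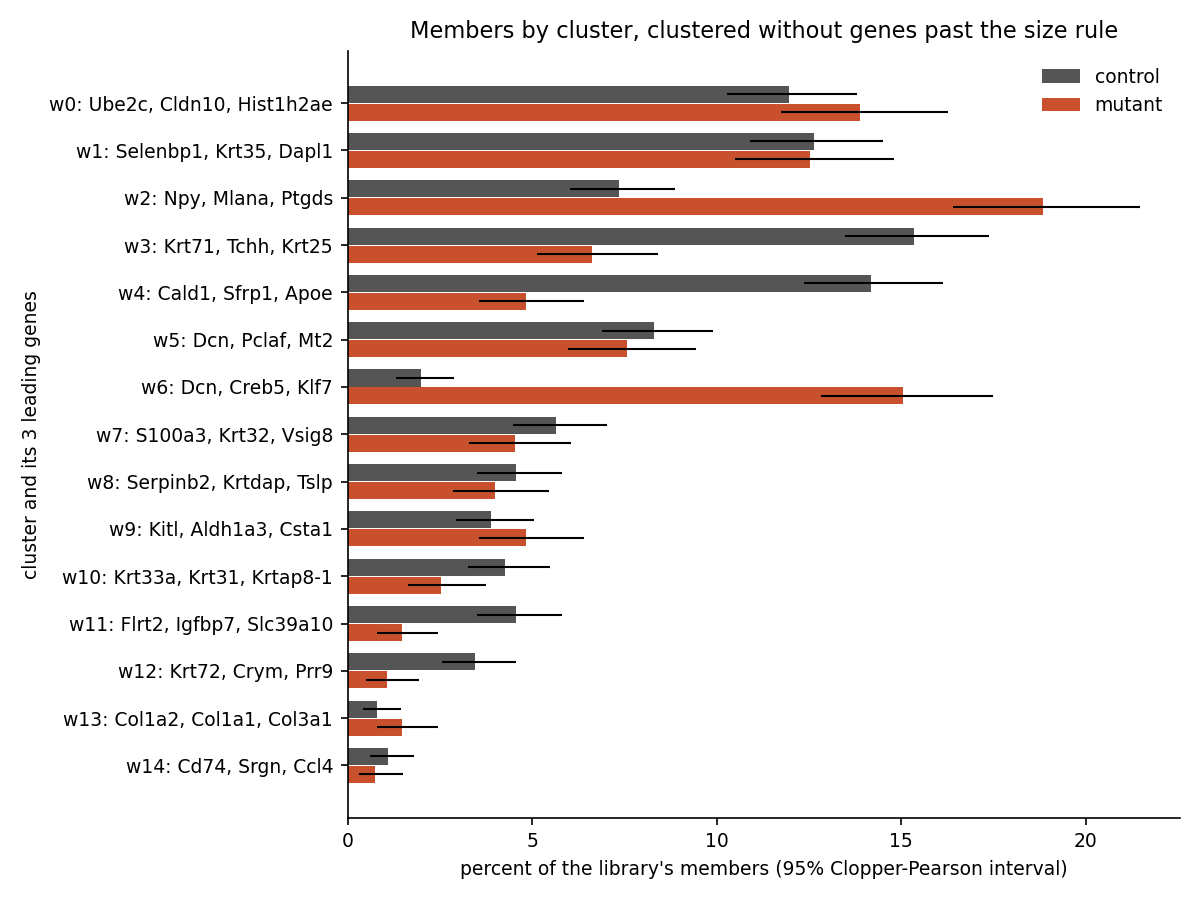
Percent of each library's members in each of 15 clusters, with the 3 leading genes of each. They were formed without genes past the size rule among all members or in screened single clusters. Bars are shares and lines 95% Clopper-Pearson intervals. Clusters w2 and w6 are larger in the mutant library, w3 and w4 smaller, and w1, led by Selenbp1, is 12.6% and 12.5%.

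Fgf5 itself was still counted in the mutant library. A UMI was found in 143 of 1362 control members (10.5%) and 54 of 950 mutant members (5.68%). In T cells, which should lack it, the shares were 2.33% and 0.910% at lower depth. In cells thinned to 5000 UMIs they were 4.95% and 2.81% of members and 3.33% and 2.40% of T cells. A 3' tag outside the deleted part of a gene does not check the deletion. Thinned in the same way, it was found in 19 of 190 control and 2 of 50 mutant cells of the Sox9-led cluster, and in 0 of 216 control and 0 of 238 mutant cells of clusters 3 and 5; the latter allow shares of up to 1.69% and 1.54%. The green reporter eGFP was counted in 58.7% of control and 65.2% of mutant members, and in 29.5% and 34.3% of T cells. Thinned to equal depth the shares were 46.9% and 52.6% of members and 39.6% and 51.9% of T cells. Nfatc1, whose promoter drives the recombinase, had a UMI in 6.75% and 4.42% of members and in 6.74% and 4.93% of T cells, without thinning. Whether T cells make Nfatc1 themselves was not tested, so for Nfatc1 and eGFP their shares do not measure free RNA. How much of the eGFP signal is free RNA was not tested.

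Genes were compared by UMIs summed over cells of a library. A gene was past the size rule, and is called higher or lower, if it differed by at least 2-fold, its interval's nearer bound lay beyond 1.5-fold and it had at least 100 CPM in the higher library. Among all members 28 of 1441 compared genes were higher in the mutant library (1.94%) and 37 lower (2.57%). These counts are taken over a mix that differed between libraries. The inner root sheath list had 4 of 8 compared genes lower and 0 higher, with a median log2 ratio of -1.01 against -0.04 over all compared genes. This list holds Krt71, Krt25 and Krt27, which the selection rule limited, and that limit left out 152 control and 22 mutant cells. Its values are therefore a description. Krt73, a keratin of the inner root sheath cuticle, had a log2 ratio of -1.92. Sfrp1, a secreted Wnt inhibitor (-1.82), and Krt15, a basal keratin (-1.69), were also lower. Both are genes of cells outside the shaft. Krt35 had a ratio of -0.63 over all members and did not pass the rule. The comparisons below therefore stay within groups of clusters, which were defined after the clusters were seen.

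Krt35, Selenbp1 and Dapl1 were compared in the clusters led by Selenbp1, cluster by cluster. Dapl1 is a gene of early epithelial differentiation and Selenbp1 a selenium-binding protein. In cluster 3, with 157 control and 105 mutant cells, the ratios were -0.92, -0.92 and -0.55 and none passed the rule. In cluster 5, with 69 and 153 cells, they were -1.24, -1.42 and -1.64 and each was lower. Cluster 3 had 1.75% of compared genes higher and 1.25% lower, and cluster 5 had 1.8% and 1.5%. Krt35 and Selenbp1 helped to define both clusters. In w1, formed without genes of large ratio, the 3 ratios were -0.68, -0.98 and -0.45 and none passed. In w2, most of whose cells came from cluster 5, they were -1.09, -1.22 and -1.40 and each was lower.

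Clusters 3 and 5 pooled are called the Selenbp1-led clusters. Most control cells were in the first and most mutant cells in the second, so pooled values also carry the mix. Of 1291 compared genes 23 were higher (1.78%) and 19 lower (1.47%). Krt35 was at 6209 CPM in control and 2596 in mutant, a log2 ratio of -1.26 (-1.30 to -1.22), and in T cells at 220 and 140 CPM. Selenbp1 was at 1229 and 475 CPM (-1.37, -1.47 to -1.28). Dapl1 was at 3311 and 1429 CPM (-1.21, -1.27 to -1.16). Hbb-bs was at 5355 and 3461 CPM (-0.63). The 7 melanocyte markers summed to 134 CPM in control and 269 in mutant. Their sums were 143 and 261 CPM in the dividing clusters and 172 and 231 over all members. The part of these markers in the result was not tested. For Selenbp1, 41.4% of the sequence runs near its 3' end also occur in other genes, so its level is uncertain.

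The median cell of the Selenbp1-led clusters had 55.4 Krt35 UMIs per 10000 in control (quartiles 28.2 and 86.1, highest 220) and 19.2 in mutant (8.32 and 36.4, highest 113). The distributions overlapped, and 11.2% of mutant cells lay above the control median. Selenbp1 had a median of 9.09 in control and 2.89 in mutant. Cells with more Krt35 had more Selenbp1 in both libraries, with a Spearman correlation across cells of 0.61 in each; cells of 1 library share their source and depth, and this is a description.

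**Figure D3:**
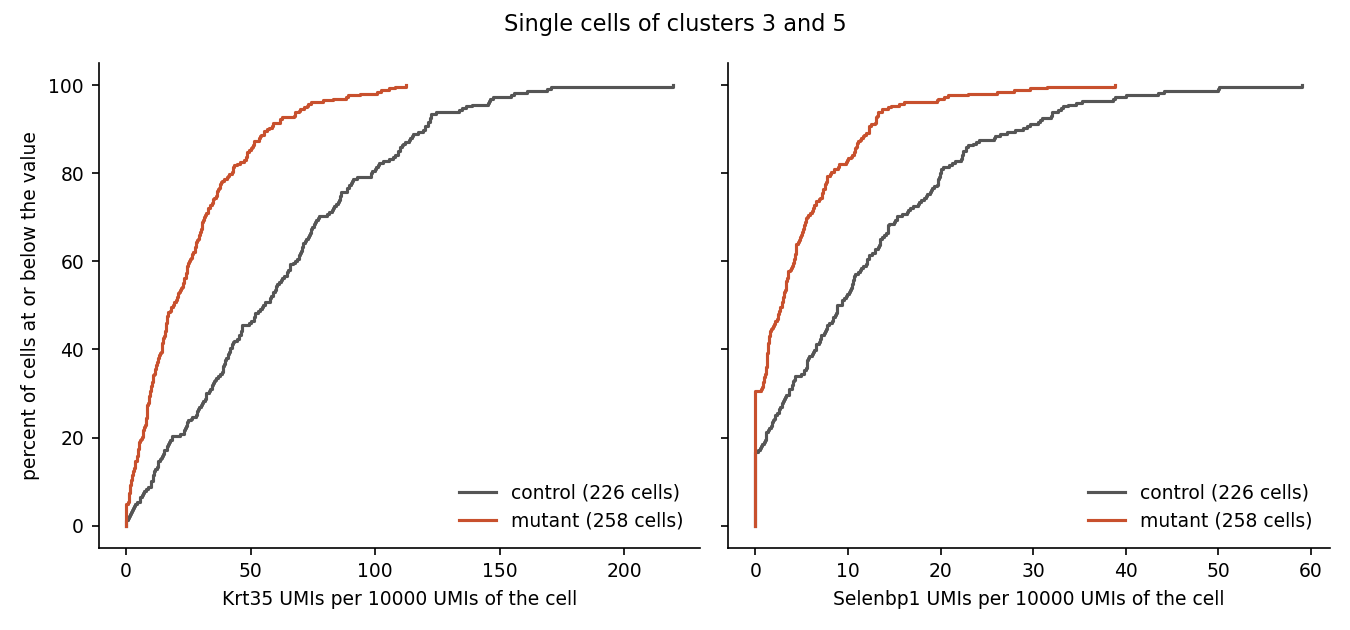
Share of cells of clusters 3 and 5 at or below each level of Krt35 (left) and Selenbp1 (right), in UMIs per 10000 UMIs of the cell. The mutant curve lies to the left of the control curve, with medians of 19.2 against 55.4 for Krt35.

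The 4 factors of the rule did not pass in these clusters. Lef1 was at 275 CPM in control and 191 in mutant (-0.52), Msx1 at 176 and 204 (0.22), Msx2 at 324 and 269 (-0.27) and Hoxc13 at 248 and 189 (-0.39). They chose the cells, so these are descriptions. Cells of 2 other shaft clusters were compared in the same way. In the hair keratin-led cluster, of 88 control and 47 mutant cells, 1.76% of compared genes were higher and 2.48% lower, and in the S100a3-led cluster, of 78 and 45, 2.86% were higher and 3.3% lower. Krt35 was at 7617 and 6064 CPM in the hair keratin-led cluster (-0.33, -0.38 to -0.28) and at 7597 and 3807 in the S100a3-led cluster (-0.997, -1.06 to -0.93), neither past the rule. The Krt35 ratio was -0.65 in T cells and -1.18 in fibroblasts, at levels of 220 CPM or less. How much of the difference in matrix cells comes with free RNA was not tested.

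The promoters of Selenbp1 and Dapl1, which were lower in the pooled values of both groups of clusters, are shown from RefSeq (GRCm38.p6, 250 bases up to the start, 5′ to 3′). No entry for Krt35 was used.
Selenbp1, chr3:94932833-94933082, + strand: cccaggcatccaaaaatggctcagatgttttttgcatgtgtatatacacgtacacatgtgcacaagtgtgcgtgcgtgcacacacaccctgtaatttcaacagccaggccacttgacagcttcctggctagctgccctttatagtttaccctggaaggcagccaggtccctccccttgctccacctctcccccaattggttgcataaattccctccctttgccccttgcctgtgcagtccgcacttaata
Dapl1, chr2:59484403-59484652, + strand: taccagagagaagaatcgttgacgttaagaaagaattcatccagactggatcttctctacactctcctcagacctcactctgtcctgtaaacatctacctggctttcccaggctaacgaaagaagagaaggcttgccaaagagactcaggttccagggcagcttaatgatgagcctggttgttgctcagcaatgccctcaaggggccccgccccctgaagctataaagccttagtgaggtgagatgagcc
The letters CTTTGA or, on the other strand, TCAAAG, a core that Lef1 and its relatives bind, were searched for, and matches would be in capitals. None was found in these windows or in the 3 further entries searched, 2 of Hopx and 1 of Gadd45g. The search began with Selenbp1 and was widened to Dapl1, Hopx and Gadd45g after it found none; Krt35 was not searched. Of 32851 promoters, 4544 (13.8%) hold the letters. That they are not in these windows says nothing of the factor.

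In the dividing clusters 52 of 1542 compared genes were higher (3.37%) and 32 lower (2.08%). The clusters behind these counts differ: cluster 0 held 28 control and 296 mutant cells, and cluster 1 held 283 and 41. They also differed in globin RNA. Hbb-bs was at 168 CPM in control and 348 in mutant in cluster 0, and at 4209 and 9067 in cluster 1. The part of globin RNA in this split was not tested. Over both clusters Krt35 was at 854 CPM in control and 206 in mutant (-2.05, -2.17 to -1.94), Selenbp1 at 284 and 69.3 (-2.03) and Dapl1 at 388 and 92.9 (-2.06). In mutant T cells Krt35 was at 140 and Dapl1 at 164 CPM, and the part of free RNA in the low mutant levels was not tested. In cluster 1 alone the 3 ratios were -1.99, -1.61 and -1.35. In cluster 0 alone they were 1.30, 4.42 and 2.78 from 27, 1 and 4 control UMIs in 28 cells, or 82.3, 3.05 and 12.2 CPM; the control level of Krt35 there lay below the 220 CPM of control T cells, so nothing is read from these. The shares of compared genes past the rule were 1.37% higher and 1.11% lower in cluster 0 alone, and 1.59% and 0.863% in cluster 1 alone. Dcn, a fibroblast proteoglycan, was among the leading genes of cluster 0, and the other 8 fibroblast markers summed to 24.1 CPM in control and 34.7 in mutant dividing cells.

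Of 9 compared genes of the S phase list 2, Tyms and Tk1, were lower in the pooled dividing clusters and 0 higher, against 2.08% and 3.37% of all compared genes, with a median of -0.51 against -0.09 over all compared genes. Tyms, which makes thymidylate, was at 182 and 82.6 CPM (-1.14, -1.34 to -0.95), but its ratios in clusters 0 and 1 alone were -0.86 and -0.57, not past the rule. Tk1, a thymidine kinase, had a ratio of -1.20 pooled and of 0.064 in cluster 0 alone. None of 22 compared genes of the G2 and M phase list passed. Counting thinned members in which S phase genes had 2 UMIs or more gave 82.5% (80.4 to 84.6%) in control and 84.0% (81.5 to 86.4%) in mutant, intervals that overlap. Other random draws of the thinning moved the difference between -0.62 and 1.74 percentage points, so it has no settled sign. Most members met this limit of 2 UMIs, so it does not single out dividing cells.

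Some heat shock genes were higher in the mutant library in both groups. Of 12 compared chaperone genes 4 were higher in the Selenbp1-led clusters, where 1.78% of all compared genes were, and 3 in the dividing clusters, against 3.37%. The other 8 and 9 did not pass. Hsph1, a co-chaperone, was at 113 and 461 CPM in the Selenbp1-led clusters (2.02, 1.84 to 2.21) and at 89.3 and 352 in the dividing clusters (1.98, 1.80 to 2.16). Hspa1a, an inducible Hsp70, was at 1018 and 2567 CPM (1.33) and at 452 and 1604 (1.83), and passed in each of clusters 0, 1, 3, 5, 6 and 7 alone. Hsph1 did not pass in cluster 1 (0.42) or cluster 7 (0.15). In T cells Hsph1 differed by 1.92 and Hspa1a by 0.67. The members' mitochondrial share was also higher in the mutant library, and its part in the result was not tested.

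Some keratins of basal and outer root sheath cells differed between libraries in the pooled groups, and the part of the mix of clusters was not tested. In the pooled dividing clusters Krt14, Krt16 and Krt17 were higher, 3 of 5 compared genes of the list against 3.37% of all, and in the pooled Selenbp1-led clusters Krt16 and Krt17, 2 of 3 against 1.78%. Over all members the list had 1 of 6 higher and 1 lower, with a median of -0.71. Krt17 was at 434 and 1003 CPM in the Selenbp1-led clusters (1.21, 1.11 to 1.31) and at 419 and 1218 in the dividing clusters (1.54, 1.46 to 1.62). Its ratios were 0.74 and 0.73 in clusters 3 and 5 alone and 0.77 and 0.33 in clusters 0 and 1 alone. None of the 3 keratins passed in cluster 0, 1, 3 or 5 alone. In the S100a3-led cluster Krt17 (-1.50) and Krt14 (-2.14) were lower, and Krt16 did not pass. In the hair keratin-led cluster Krt16 was higher (2.03), and Krt14 and Krt17 did not pass.

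**Figure D4:**
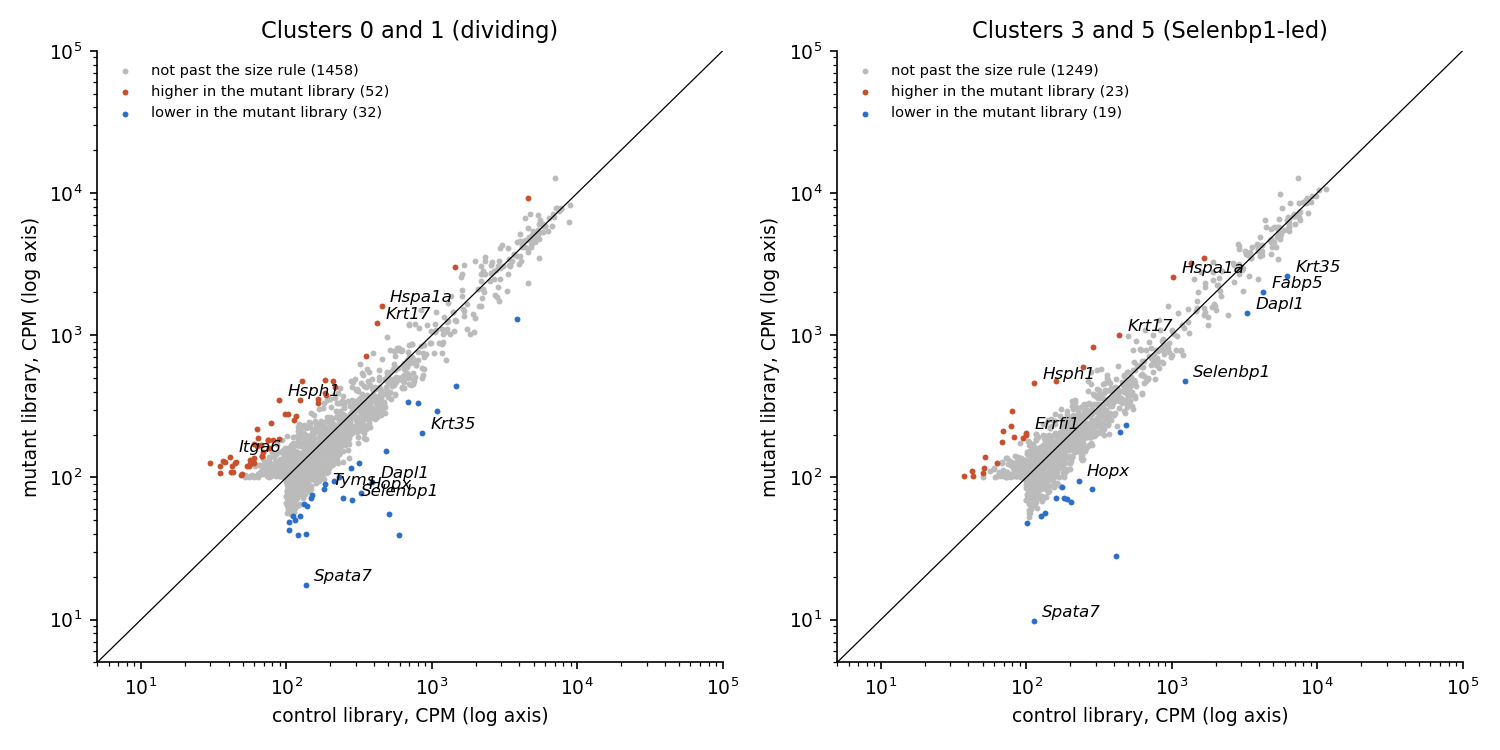
CPM of each compared gene in the control (x) and mutant (y) library, both on log axes, in the dividing clusters (left) and the Selenbp1-led clusters (right). Colours mark genes past the size rule, 52 higher and 32 lower on the left and 23 and 19 on the right; Krt35, Selenbp1 and Dapl1 lie below the line and Hsph1 and Hspa1a above it.

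Hopx, a homeodomain-like protein known from follicle stem and progenitor cells, was lower in both groups. It was at 229 and 94.9 CPM in the Selenbp1-led clusters (-1.27, -1.49 to -1.05) and at 324 and 77.1 in the dividing clusters (-2.07, -2.26 to -1.89). It was lower in clusters 0 and 1 alone (-1.32 and -1.11) and in the S100a3-led cluster (-1.997). The value of cluster 0 rests on 55 control UMIs in 28 cells, and that of cluster 1 on 68 mutant UMIs in 41 cells. In cluster 3 alone (-0.65), w1 (-0.49) and the hair keratin-led cluster (-0.44) Hopx did not pass. In T cells Hopx differed the other way, by 1.39. Gadd45g, a growth arrest gene, was lower in both groups (-1.08 and -1.67), but its ratio in w1 was -0.26, not past the rule, and in w2 -1.27. Fos, an immediate early gene, was lower in the dividing clusters (-1.26), and at -0.05 and -0.36 in clusters 0 and 1 alone did not pass.

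Other named genes were spread over several functions. Dusp7, a phosphatase of MAP kinases, was at 68.1 and 177 CPM in the Selenbp1-led clusters (1.38) and at 37.8 and 129 in the dividing clusters (1.77). Myh9, a non-muscle myosin, was higher by 1.43 and 1.79, and Klf7, a transcription factor, by 1.47 and 1.53, though Klf7 was at -0.21 in cluster 0 alone, and in w1 alone Myh9 was at 0.53 and Klf7 at 0.87, not past the rule. Fabp5, a fatty acid-binding protein of keratinocytes, was at 4237 and 2015 CPM in the Selenbp1-led clusters (-1.07, -1.12 to -1.02). In the dividing clusters it was at 4615 and 2319 CPM (-0.99), short of the rule, and in T cells the ratio was -1.61. Itga6, an integrin of basal cells, was at 40.8 and 140 CPM in the dividing clusters (1.78), but its ratios in clusters 0 and 1 alone were 0.10 and 0.84.

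Some genes on chromosome 12 differed alike in matrix cells, T cells and fibroblasts. Spata7, a gene of cilia, was at 112 and 9.80 CPM in the Selenbp1-led clusters (-3.52, -4.17 to -2.93), and its ratio was -3.59 in T cells and -2.51 in fibroblasts. Erh was lower in the Selenbp1-led clusters (-1.42), T cells (-1.56) and fibroblasts (-1.32), though 40.1% of its 3' runs are shared with other genes. Wdr89 was higher, by 1.27, 1.18 and 1.15. These 3 genes were singled out after their values were seen. No count of calls by chromosome is given, so nothing is read from their shared chromosome. They lie at chr12:98628157-98669815, chr12:80634022-80644341 and chr12:75630596-75669537 (GRCm38, GENCODE vM21).

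**Figure D5:**
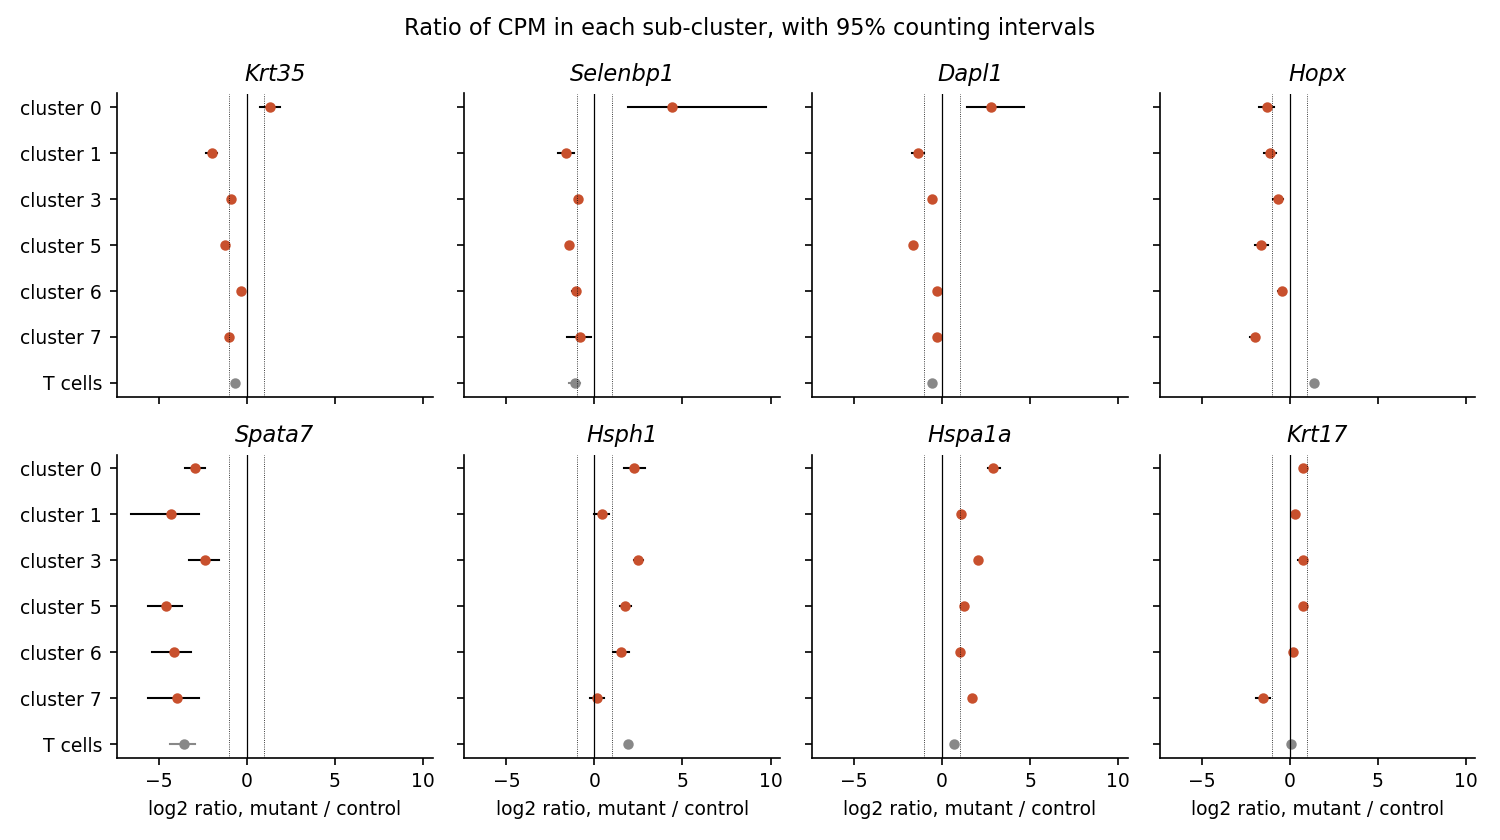
Log2 ratio of CPM, mutant over control, for 8 genes in sub-clusters 0, 1, 3, 5, 6 and 7 and in T cells (grey), with 95% counting intervals; dotted lines mark 2-fold. Spata7 is negative in each, Hspa1a positive in each, and Krt35, Selenbp1 and Dapl1 are positive in cluster 0, from 27, 1 and 4 control UMIs.

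Few genes of signalling pathways had the level to be compared. In the dividing and Selenbp1-led clusters none passed among 4 compared genes of the Wnt list, 5 of the BMP list or 3 of the Notch list; with 3.37% and 2.08% of all compared genes past the rule in the dividing and 1.78% and 1.47% in the Selenbp1-led clusters, nothing is read from these counts. Of the FGF list 3 and 2 genes reached the level minimum. Fgfr2, an FGF receptor, was at 59.9 and 116 CPM in the Selenbp1-led clusters, a log2 ratio of 0.96 (0.67 to 1.25), short of the rule. No gene of the hedgehog list reached the level minimum. Errfi1, an inhibitor of the EGF receptor, was higher in the pooled Selenbp1-led clusters (1.04, 0.82 to 1.26), but at 0.61 in w1 and 0.80 in w2 did not pass.

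The calls of the 2 groups overlapped. Of the higher genes 15 were shared, 28.8% of those of the dividing and 65.2% of those of the Selenbp1-led clusters. Of the lower genes 12 were shared, 37.5% and 63.2%. Both comparisons draw on the same libraries, so this overlap is no independent repeat.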

How the data were processed

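The authors deposited unnormalized UMI counts for each barcode of 10x 3' v3 libraries, counted with Cell Ranger 3.0.2 on GRCm38 (mm10), per the submitters' processing notes. The control matrix held 140880809 UMIs in 16973 barcodes and the mutant matrix 97817173 in 13411. Members and gene lists were chosen with earlier results of these data known. UMIs were summed per library and group and divided by their total (CPM). Ratios have exact conditional 95% intervals for 2 counts. No p-value was computed. Members were clustered with scanpy 1.11.5 and leidenalg 0.10.2 (2000 variable genes without cell cycle and sex-linked genes, 20 components, 15 neighbours, resolution 0.5), without batch integration. Scrublet was run at an expected rate of 0.8% per 1000 cells, set after its default called 0 control cells; it called 0.808% of control and 3.26% of mutant members, which were kept, and leaving them out was an alternative. Named genes were the markers and rule genes, the 15 largest ratios per direction without possible free RNA, mitochondrial, ribosomal and unnamed genes, list members past the rule or among the 6 highest, the 20 most enriched genes and 10 leading genes per sub-cluster. The 15 were extended to the 2 groups of clusters after the data were seen. Factors of edgeR 4.0.16 and DESeq2 1.42.0 served as other scalings only. The size rule and intervals were tested on simulated data.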

Additional observations from a re-analysis of the deposited data

How the results depend on the processing

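No paired analysis was possible because each genotype has a single matrix, and its cells carry no replicate number. With 1 matrix a group, leaving out a replicate was likewise not possible. A marker minimum of 6 UMIs moved the log2 ratio of the members' share to -0.37. A level minimum of 50 CPM gave 54 higher and 71 lower genes among members, 115 and 71 in the dividing clusters and 56 and 42 in the Selenbp1-led clusters; 200 CPM gave 13 higher among members, 21 and 17 in the dividing and 12 and 10 in the Selenbp1-led clusters. Cluster 0 alone gave 21 higher and 17 lower genes and cluster 1 alone 24 and 13. Of the clusters formed without genes of large ratio, w0 alone gave 33 higher, w5 alone 33 and 15 lower, and w6 alone 22 and 17, against 52 and 32 in the dividing clusters; w1 alone gave 15 higher and w2 alone 43 lower, against 23 and 19 in the Selenbp1-led clusters. A limit of 4 UMIs moved the difference in G2 and M phase shares to -3.13 percentage points, and the rule applied to thinned cells moved that of S phase shares to 5.82. Signs turned for Pthlh among members without sub-clusters led by other types (0.81) and for Tshz1 in cluster 3 alone (-0.32). In the dividing clusters they turned in cluster 0 alone for Creb5 (-0.48), Dapl1 (2.78), Exosc5 (0.024), F3 (-0.40), Hba-a1 (0.41), Hba-a2 (0.67), Hbb-bs (1.05), Klf7 (-0.21), Krt14 (-0.032), Krt35 (1.30), Selenbp1 (4.42) and Tk1 (0.064), and in cluster 1 alone for Hba-a1 (1.06), Hba-a2 (0.91), Hbb-bs (1.11), Mast4 (-0.13) and Neat1 (-0.24). They also turned in w6 alone for Hba-a1 (2.65), Hba-a2 (2.64), Hbb-bs (2.72), Hbb-bt (0.94) and Krt16 (-0.18), in w5 alone for Pim1 (-0.014), and in w1 alone for Arid4a (-0.074), Hist1h1b (-0.26) and Tshz1 (-0.19). The causes were not tested. Of named ratios past the rule, 8 of 48 among members, 4 of 45 in the dividing and 5 of 32 in the Selenbp1-led clusters passed under every alternative run. The other scalings shifted ratios by 0.05 or less. Members with fewer than 2 UMIs of each phase list could not be compared (0 control and 6 mutant cells). That limit does not separate dividing cells, so the alternative of dividing members only was nearly the whole set. The single-cluster, other-clustering and thinning-draw alternatives were chosen after seeing the data.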
